A study of Mus musculus with 54 samples.

Results

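The 9 genes described here are immediate early genes of 3 families outside AP-1: Egr1, Egr2 and Egr3, Ier2, Ier3 and Ier5, and Nr4a1, Nr4a2 and Nr4a3. They were taken by gene symbol from the table of raw counts, where they are 9 of 16632 rows, and all 9 were among the 13169 genes tested. The counts come from 54 libraries of primary microglia of C57BL/6 mice, the resident immune cells of the brain, isolated from neonatal animals and shaken off an astrocyte layer. The study asked how microglial transcription changes with alpha-synuclein (aSyn), the protein that aggregates in Parkinson disease, and with contact between loaded and unloaded cells. Libraries were made by 3′ end sequencing, in which each transcript gives a read near its poly(A) tail.

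All cells shared strain, isolation and medium but not passage, which the labels give as 3 for experiment 1, 1 for experiment 2 and 2 for experiments 3 and 4. Each flask had been started with the cells of 2 brains. Untreated_Ctrl cells received no aSyn, and aSyn_Donor cells received aSyn without co-culture. Donors had taken up 1 µM fluorescently labelled aSyn for 14 h. Acceptors received no aSyn and were stained with a violet dye for 15 min. Donors and acceptors were mixed for 15, 30, 60, 150 or 300 min and sorted apart again by flow cytometry, which gives groups named Donors_15min, Acceptors_15min and so on. Groups named 0 min also exist, but the protocol describes no 0 min co-culture, nor does it say whether the cells outside co-culture were sorted. The 14 groups hold 3 or 4 experiments each, numbered 1 to 4 by the replicate number in the labels, so passage and experiment cannot be told apart. Same-numbered untreated libraries (numbers 2 and 4) were summed, which leaves 52 values per gene. Experiment 4 is missing at 0 min in both populations, experiment 2 in donors at 60 min and experiment 3 in acceptors at 300 min. The labels do not say that experiments were separate animals, so p-values measure only the spread between these samples.

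Immediate early genes are switched on without new protein synthesis when a signal reaches the nucleus, mainly through ERK and other MAP kinases acting on serum response factor and through cAMP or calcium acting on CREB. Their messengers are short-lived, so a pulse of stimulation gives a pulse of RNA. Egr proteins are zinc finger transcription factors that help macrophage-lineage cells respond to growth factors and inflammatory signals. Nr4a proteins are orphan nuclear receptors that act without a known hormone and restrain inflammatory gene expression in microglia and macrophages. Ier2 is a nuclear regulator of transcription, Ier3 (also called IEX-1) is an NF-kB target that modulates cell survival, and Ier5 is a regulator of the heat shock factor Hsf1.

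Promoter windows were found for 6 of the 9 genes in RefSeq's table for build GRCm38.p6, and Egr1, Egr3 and Ier2 were not matched. The 250 bases before the start of the 3 Nr4a genes are shown because these genes have the highest numbers of cAMP response element cores among the members. Capitals mark the core TGACG on either strand (CGTCA on the opposite strand). The windows are chr15:101266596-101266845 on the plus strand for Nr4a1, chr2:57124004-57124253 on the minus strand for Nr4a2 and chr4:48045055-48045304 on the plus strand for Nr4a3. The Nr4a1 window lies inside the annotated gene, the Nr4a3 window runs into its gene and the Nr4a2 window lies before its gene.
Nr4a1: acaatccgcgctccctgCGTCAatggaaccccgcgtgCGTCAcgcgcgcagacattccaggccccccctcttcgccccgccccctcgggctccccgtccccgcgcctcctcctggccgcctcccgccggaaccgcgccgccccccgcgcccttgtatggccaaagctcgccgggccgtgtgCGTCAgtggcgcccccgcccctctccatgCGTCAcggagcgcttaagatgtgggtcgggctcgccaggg
Nr4a2: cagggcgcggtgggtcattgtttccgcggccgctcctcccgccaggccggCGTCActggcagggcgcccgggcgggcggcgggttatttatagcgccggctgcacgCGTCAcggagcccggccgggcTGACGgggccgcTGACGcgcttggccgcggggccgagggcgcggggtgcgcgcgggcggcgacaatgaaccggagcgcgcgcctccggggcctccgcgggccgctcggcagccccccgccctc
Nr4a3: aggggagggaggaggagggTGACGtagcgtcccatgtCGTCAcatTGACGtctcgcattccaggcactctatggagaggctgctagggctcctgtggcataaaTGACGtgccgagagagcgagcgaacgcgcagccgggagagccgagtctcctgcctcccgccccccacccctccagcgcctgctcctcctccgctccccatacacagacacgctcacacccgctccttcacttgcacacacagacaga

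Each of the 3 windows held 4 cores. Of 32851 mouse windows of this length, 17.8% held at least 1 core and 0.137% held at least 4. The full palindrome TGACGTCA, which occurs in 1.55% of windows, was in none of the members' windows.

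Egr2 and Ier3 are shown next because they carry other response elements. Egr2 has 5 listed windows, and the one at chr10:67537619-67537868 on the plus strand, inside the annotated gene, is printed. Its capitals mark 1 CArG box, the site read by serum response factor, and 2 TGACG cores. In the Ier3 window, chr17:35821463-35821712 on the plus strand, capitals mark 1 match to the NF-kB motif, on the opposite strand. The end of the Ier3 window runs into the annotated gene.
Egr2: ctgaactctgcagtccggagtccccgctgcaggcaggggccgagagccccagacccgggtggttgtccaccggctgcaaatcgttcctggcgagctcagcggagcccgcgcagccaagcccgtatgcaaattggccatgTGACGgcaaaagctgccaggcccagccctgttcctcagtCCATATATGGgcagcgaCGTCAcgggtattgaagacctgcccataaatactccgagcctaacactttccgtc
Ier3: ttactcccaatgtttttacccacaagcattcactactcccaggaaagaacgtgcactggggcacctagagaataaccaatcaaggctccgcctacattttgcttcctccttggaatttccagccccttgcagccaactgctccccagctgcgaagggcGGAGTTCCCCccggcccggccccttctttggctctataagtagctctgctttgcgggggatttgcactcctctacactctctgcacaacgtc

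A CArG box was present in 1.47% of all windows and an NF-kB match in 5.93%, both strands searched. The Ier5 window held none of these 4 motifs in its 250 bases before the start. A match is a run of letters and not a measured site of binding.

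Over all 52 values, Ier5 lay between 156 and 555 CPM (counts scaled to the size of the library), Ier3 between 15.9 and 421 CPM and Egr1 between 1.88 and 162 CPM. Nr4a3 was at most 7.49 CPM and had 3 or fewer counts in 13 of the 52 values. Donors at 30 min had the highest mean of Egr1, Egr2, Egr3, Ier2 and Nr4a1, donors at 15 min that of Ier3, acceptors at 30 min that of Ier5, and acceptors at 60 min that of Nr4a2 and Nr4a3. Untreated cells had the lowest mean of Ier3, Nr4a1 and Nr4a2. When the 14 group means of a gene were put in order, the ranges of neighbouring groups overlapped in all 13 neighbour pairs of every member.

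Library totals ran from 7807389 to 15537493 counts. Experiment 4 has facility numbers apart from the rest and differed on average, with ranges that overlap: the ribosomal RNA precursor Rn45s took 18.0% of its counts on average against 4.46 to 8.11% in the others, and the summed level of 10 microglia markers was 1562 to 3620 CPM in it against 3525 to 5559 CPM in experiments 1 to 3. The markers Csf1r, Trem2 and Cx3cr1 were present in every library, and Siglech had a median of 0 CPM. Each test below was run without and with the experiment number as a block, and counts without experiment 4 are given where they differ. Genes are called at an adjusted p under 0.05 by edgeR's quasi-likelihood test with Benjamini-Hochberg adjustment over all 13169 genes.

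After exposure to aSyn alone, Ier3 rose. Ier3 was at 20.3, 22.8, 16.7 and 17.3 CPM in untreated cells and at 87.0, 63.9, 79.7 and 421 CPM in aSyn-exposed cells of experiments 1 to 4. The groups did not overlap, and experiment 4 stood far above the other exposed cultures. The log2 fold change was 3.08 ± 0.87 (SE, n = 4 per group, edgeR adjusted p = 0.0463), and with the block it was 2.35 ± 0.36 (adjusted p = 1.35e-05).

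Nr4a2 was at 0.908, 0.698, 1.80 and 1.96 CPM in untreated cells and at 3.46, 3.84, 12.7 and 11.8 CPM after aSyn. It too was higher in all 4 experiments with no overlap, although every level was low. The log2 fold change was 2.55 ± 1.09 (edgeR adjusted p = 0.211) without the block and 2.62 ± 0.67 (adjusted p = 0.00464) with it. The size of the rise was thus alike, and Nr4a2 was called only in the blocked fit. Nr4a1 was at 2.72, 4.71, 4.11 and 2.87 CPM in untreated cells and at 13.4, 11.6, 26.2 and 4.54 CPM after aSyn. Higher in 4 of 4 experiments, it had a log2 fold change of 1.94 ± 0.84 and did not pass (edgeR adjusted p = 0.222, with the block 0.102). Ier2 was also higher in 4 of 4 experiments, by 0.67 ± 0.33 on the log2 scale (adjusted p = 0.295, with the block 0.150).

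The Egr genes split by experiment. Egr1 was at 7.97, 38.3, 16.6 and 12.2 CPM in untreated cells and at 28.2, 36.7, 12.6 and 3.23 CPM after aSyn, higher in 1 of 4 experiments. Egr3 was at 2.12, 9.55, 3.00 and 0.943 CPM in untreated cells and at 36.7, 8.599, 5.25 and 0.611 CPM after aSyn. Both genes were higher after aSyn in experiment 1 and lower in experiments 2 and 4, and the groups overlapped. The fitted change of Egr2 was 0.91 ± 0.65 on the log2 scale (adjusted p = 0.495 by edgeR). That of Ier5 was -0.25 ± 0.34 (adjusted p = 0.759).

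In all, 1 of 9 members was called in this comparison without the block, beside 2.5% of all tested genes, and 2 of 9 with it, beside 19.2%. The second count is close to the share of all genes. The median log2 fold change of the members was 1.67 without and 1.01 with the block, and that of all genes -0.04 and -0.05. Without experiment 4, the blocked fit called Egr2, Ier3, Nr4a1 and Nr4a2, and without experiment 3 it called only Ier3. The share of all genes called was not computed for fits that leave out an experiment. The Ier3 call of the unblocked fit was lost without replicate 1, 2 or 3 (adjusted p = 0.117, 0.0854 and 0.241). The microglia markers summed to 3620 to 4975 CPM in untreated and 1784 to 4508 CPM in aSyn-exposed cells. Markers of other glia moved with this comparison: the summed level of 8 astrocyte markers was 11.3 to 139 CPM in untreated and 11.2 to 29.3 CPM in aSyn-exposed cells, and 5 of the 8 fell in the blocked fit. The 7 oligodendrocyte lineage markers summed to 116 to 573 CPM and 79.2 to 246.03 CPM, and 3 of 7 fell in the blocked fit. Over all values, the medians of the astrocyte markers Aldh1l1, Aldoc, Slc1a3 and Slc1a2 were 5.31, 4.59, 2.84 and 1.13 CPM. Those of S100b, Gja1, Gfap and Aqp4 were 0.906, 0.223, 0.128 and 0 CPM. In bulk RNA, fewer cells of a type and less RNA per cell cannot be told apart, and the part of these cells in the results was not tested.

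**Figure D1:**
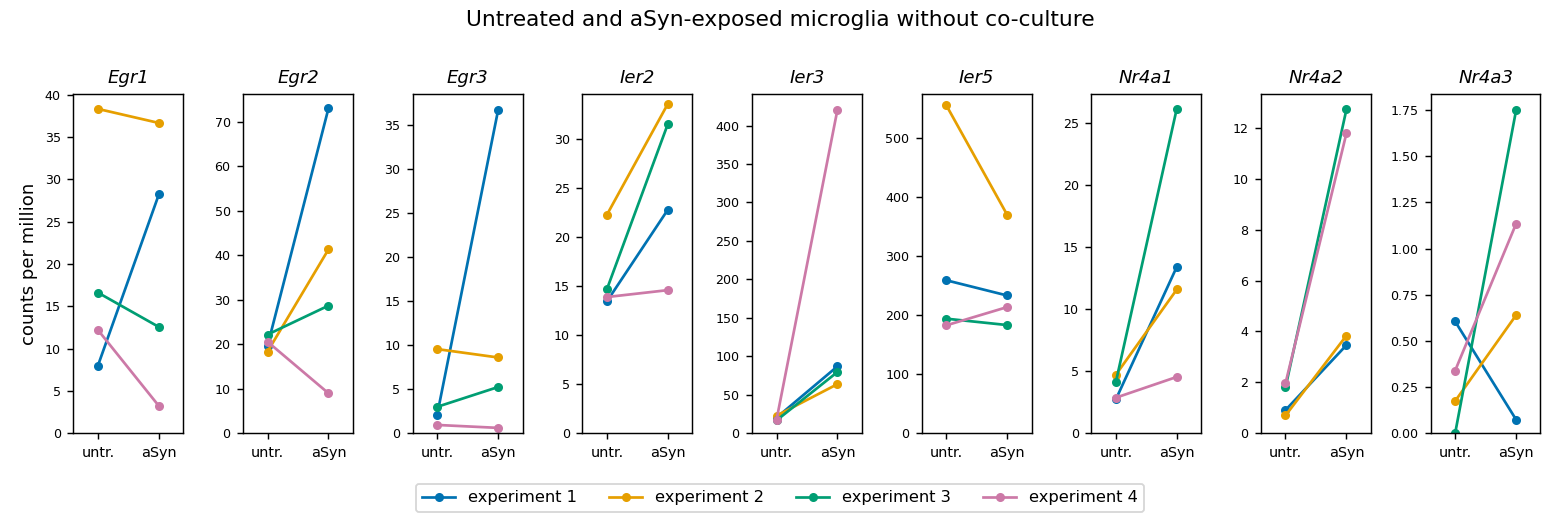
Level in CPM of the 9 members in untreated (untr.) and aSyn-exposed cells without co-culture, with 1 line per experiment and a linear axis from 0 in each panel. Ier3, Nr4a1, Nr4a2 and Ier2 were higher after aSyn in all 4 experiments, and Egr1 in 1 of 4.

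In donors, the Egr genes and Ier2 showed an early peak in experiments 1 and 2. Egr1 was at 32.0, 40.4 and 23.6 CPM at 0 min in experiments 1 to 3. It was at 116, 106, 16.2 and 4.04 CPM at 15 min and at 162, 110.3, 20.1 and 5.42 CPM at 30 min in experiments 1 to 4. Experiments 1 and 2 lay far above experiments 3 and 4 at both times. At 60 min Egr1 was at 29.5 CPM in experiment 1, 16.4 CPM in experiment 3 and 7.21 CPM in experiment 4. By 150 min it was at 7.78, 25.8, 11.2 and 2.55 CPM, and at 300 min at 8.24, 25.4, 16.7 and 1.88 CPM. The peak was 19.7 times the level at 300 min in experiment 1 and 4.35 times in experiment 2.

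Egr3 followed the same course in experiment 1, with 25.5, 34.5, 59.3, 46.8, 0.837 and 1.47 CPM at 0, 15, 30, 60, 150 and 300 min. In experiment 2 it was at 6.66, 12.7, 16.8, 2.03 and 1.82 CPM at 0, 15, 30, 150 and 300 min. Experiments 3 and 4 stayed at or under 3.03 CPM throughout. Egr2, which acts with Egr1 in macrophage differentiation, was at 105, 69.7, 23.2 and 9.72 CPM at 30 min and at 36.1, 25.7, 19.4 and 2.74 CPM at 300 min. Its levels kept the same order of experiments at both times.

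Ier2 varied less between experiments. Ier2 was at 27.1, 38.5 and 31.1 CPM at 0 min, at 66.7, 71.9, 30.5 and 20.1 CPM at 15 min and at 74.01, 78.05, 41.6 and 22.5 CPM at 30 min. At 60 min it was at 29.1, 39.3 and 29.9 CPM in experiments 1, 3 and 4, at 150 min at 15.6, 25.9, 25.9 and 22.1 CPM, and at 300 min at 12.9, 19.8, 17.7 and 8.46 CPM. Every value at 300 min was below every value at 15 min. Ier2 fell by 1.68 ± 0.34 on the log2 scale from 15 to 300 min (SE, n = 4 per group, edgeR adjusted p = 0.0212, with the block 0.00331), in 4 of 4 experiments. Its variation over the 6 donor times also passed the F test (edgeR adjusted p = 0.0383, with the block 0.00482). Both unblocked calls were lost when replicate 1, 2 or 3 was left out, and both blocked ones without experiment 1 or 2.

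Ier3 in donors was at 196, 113, 90.8 and 366 CPM at 15 min, at 148, 77.1, 87.0 and 392 CPM at 30 min and at 23.1, 40.2, 58.6 and 230.7 CPM at 300 min. It was lower at 300 than at 15 min in 4 of 4 experiments, while experiment 4 stayed above all others at each time. The log2 fold change from 15 to 300 min was -1.12 ± 0.81 (edgeR adjusted p = 1) without the block and -1.48 ± 0.35 (adjusted p = 0.0244) with it, so the fall was called only in the blocked fit, and there not without experiment 1, 2 or 3. Ier5 varied over time in the blocked F test alone (edgeR adjusted p = 0.00588), a call lost without experiment 1 or 2. Its donor means ran from 334 ± 127 CPM at 30 min (SD, n = 4) to 228.2 ± 86.1 CPM at 300 min (n = 4).

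Nr4a1 in donors was at 59.0, 27.6, 34.6 and 2.78 CPM at 15 min, at 67.4, 31.1, 29.9 and 4.39 CPM at 30 min and, in experiments 1, 3 and 4, at 28.7, 25.9 and 12.3 CPM at 60 min. It was at 10.2, 5.84, 12.02 and 7.59 CPM at 150 min and at 4.86, 4.33, 4.09 and 1.25 CPM at 300 min. Every experiment was lowest at 300 min, and experiment 4, the lowest at 15 and 30 min, had its highest value at 60 min. The log2 fold change from 15 to 300 min was -3.09 ± 0.88, lower in 4 of 4 experiments, and did not pass (edgeR adjusted p = 0.326, with the block 0.0528). Nr4a2 was at 2.98, 5.42, 15.8 and 9.83 CPM at 15 min and at 0.441, 1.29, 3.56 and 1.80 CPM at 300 min, also lower in 4 of 4 (blocked adjusted p = 0.0815). Without experiment 4, the blocked fit called Nr4a1 and Nr4a2 along with Ier2 and Ier3, and the share of all genes called there was not computed.

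From 15 to 300 min, 1 of 9 members fell without the block, beside 0.0759% of all tested genes called, and 2 of 9 with it, beside 0.744%. All 9 members had negative log2 fold changes in both fits, with a median of -1.68 (blocked -1.69), against a median of 0.02 over all genes in both. The F test over the donor times called 1 of 9 members, beside 0.0607% of all genes, and 2 of 9 with the block, beside 0.577%. From 0 to 15 min, where only experiments 1 to 3 form pairs, 0 members were called by edgeR in either fit, beside 0% of all genes in both. An unadjusted p under 0.05 was found for 0 members in either fit, beside 1.33% of all genes without and 2.83% with the block. DESeq2 also called 0.

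Set against aSyn_Donor cells, which are the same controls for all 6 times, 0 members were called in donors at any time in either edgeR fit, and 0 in DESeq2. The share of all genes called was 0% in both fits at 0, 15, 30, 60 and 150 min, and 0.0304% without and 0.304% with the block at 300 min. Between 0 and 3 members had an unadjusted p under 0.05 in edgeR without the block and between 0 and 5 with it. The share of all genes at that threshold was 0.904 to 2.78% without and 3.08 to 8.6% with the block. DESeq2 had between 0 and 4 such members. The log2 difference of Ier2 at 30 min was 1.08 ± 0.33 and that of Egr1 1.88 ± 0.83, both higher in 4 of 4 experiments. Egr3 differed by -3.71 ± 1.28 at 150 min and by -3.46 ± 1.26 at 300 min, lower in 4 of 4 experiments each time. The adjusted p of all 4 was 1 in edgeR without the block. At 300 min 9 of 9 members were below their aSyn_Donor level, with a median log2 fold change of -0.88 against 0.01 over all genes.

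**Figure D2:**
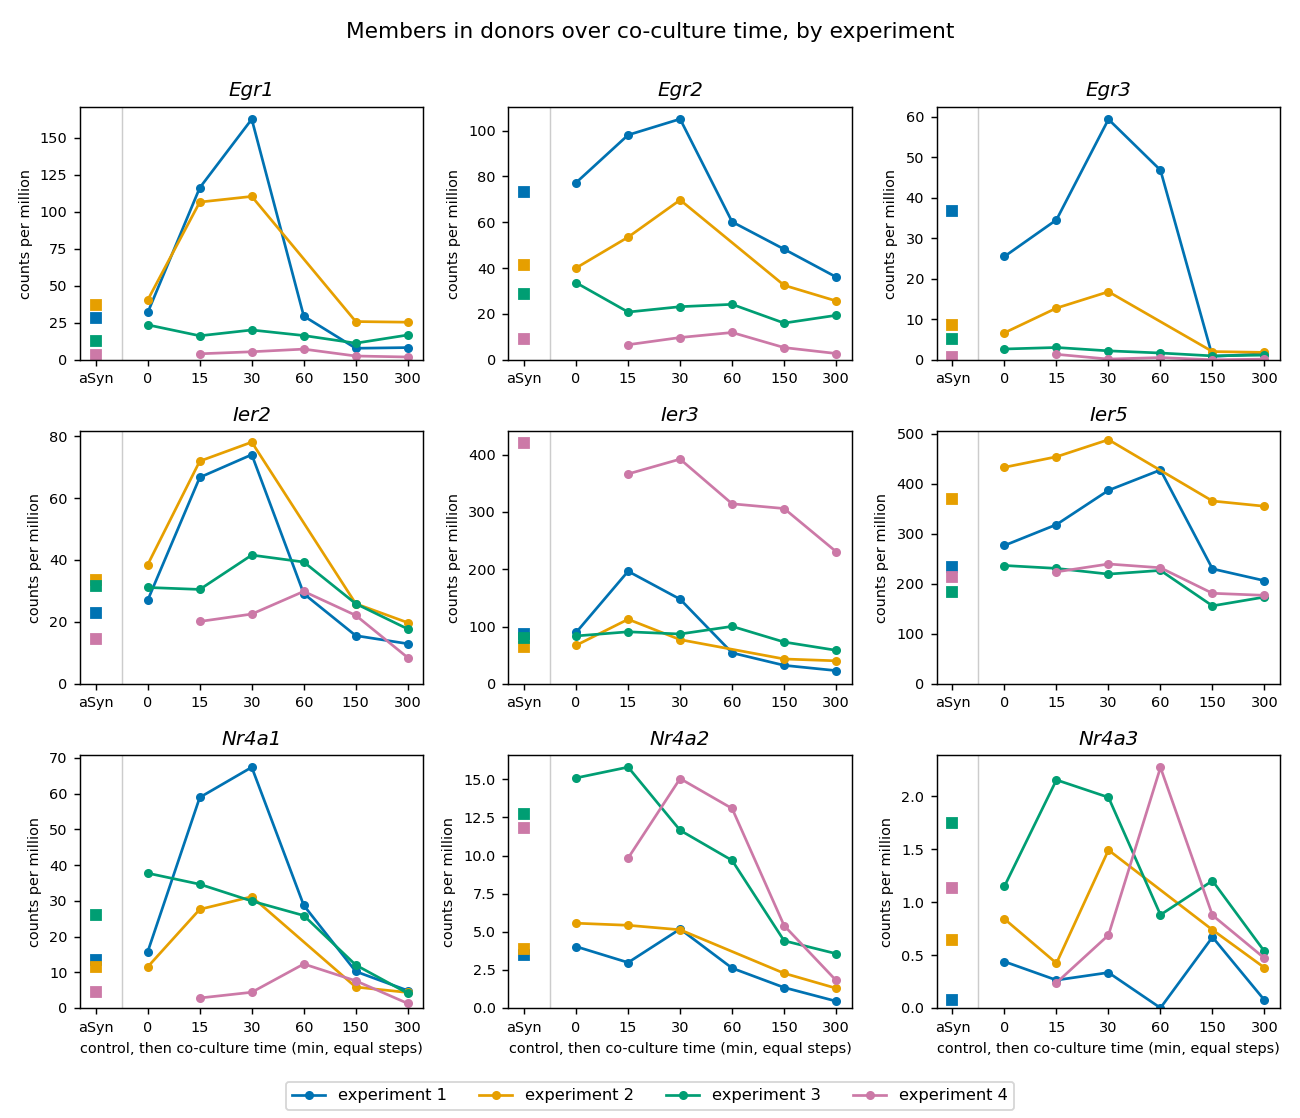
Level in CPM of the 9 members in aSyn-exposed cells without co-culture (squares, aSyn) and in donors at each co-culture time (circles), with 1 colour per experiment, equal steps between times and a linear axis from 0. Egr1, Egr3 and Ier2 peaked at 30 min in experiments 1 and 2, and Ier2 ended lowest at 300 min in all 4.

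In acceptors, Ier3 and Nr4a2 were called above the untreated level, in the blocked fit only. Acceptors were stained with the dye, mixed with donors and sorted. The untreated cells were outside co-culture, and whether they were sorted is not stated. Dye, mixing and sorting therefore cannot be told apart in this comparison. Ier3 was at 33.7, 15.9 and 26.1 CPM at 0 min and at 50.7, 31.3, 63.1 and 139.7 CPM at 15 min, against 16.7 to 22.8 CPM in untreated cells. It was at 52.8, 38.8, 65.9 and 180.1 CPM at 30 min, at 51.0, 31.2, 61.9 and 235.8 CPM at 60 min and at 25.8, 24.6, 53.8 and 271 CPM at 150 min. From 15 to 150 min every acceptor value lay above every untreated value. The log2 fold changes in the blocked fit were 1.43 ± 0.36, 1.61 ± 0.36, 1.60 ± 0.36 and 1.36 ± 0.36 at 15, 30, 60 and 150 min (edgeR adjusted p = 0.0227, 0.00807, 0.00686 and 0.0202), and Ier3 was higher in 4 of 4 experiments each time. Without the block none of these passed (adjusted p = 0.705, 0.470, 0.428 and 0.398). The blocked Ier3 call was lost without experiment 3 at all 4 times, without experiment 1 at 15 min and without experiment 4 at 150 min. At 300 min Ier3 was at 26.3, 21.4 and 143 CPM in experiments 1, 2 and 4 and was not called.

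Nr4a2 in acceptors was at 2.05, 0.725 and 1.91 CPM at 0 min. It was at 3.19, 0.387, 3.09 and 24.7 CPM at 15 min, at 3.17, 1.20, 7.62 and 53.9 CPM at 30 min, at 3.40, 0.973, 19.6 and 90.1 CPM at 60 min and at 3.52, 1.22, 8.23 and 27.0 CPM at 150 min. Experiments 3 and 4 made the course, and experiment 2 stayed near 1 CPM. In the blocked fit its log2 fold change against untreated cells was 2.88 ± 0.67 at 30 min, 3.58 ± 0.67 at 60 min and 2.46 ± 0.67 at 150 min (edgeR adjusted p = 0.0113, 0.00129 and 0.0250), each higher in 4 of 4 experiments. Without the block these did not pass (adjusted p = 0.304, 0.110 and 0.423). Without experiment 4 the blocked calls at 30 and 150 min were lost, and the one at 60 min became 2.37 (edgeR adjusted p = 0.0144). Those at 30 and 150 min were also lost without experiment 1 or 3.

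Nr4a1 was at 7.98, 3.61, 15.9 and 18.5 CPM at 15 min, at 7.56, 3.80, 44.3 and 34.9 CPM at 30 min and at 6.37, 2.19, 43.4 and 53.7 CPM at 60 min. As with Nr4a2, experiments 3 and 4 were high and 1 and 2 low. The log2 fold change against untreated cells at 60 min was 2.86 ± 0.87 (edgeR adjusted p = 0.228, with the block 0.0638), and DESeq2 called Nr4a1 and Nr4a2 at this time. Nr4a3 reached 2.75 and 7.49 CPM in experiments 3 and 4 at 60 min and lay at 0.649 CPM or less in experiments 1 and 2 at that time.

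The Egr genes and Ier2 were not called in acceptors. Egr1 was at 8.83, 14.1, 26.5 and 5.17 CPM at 15 min and at 7.09, 15.8, 43.2 and 15.7 CPM at 30 min, within the range of 7.97 to 38.3 CPM in untreated cells for 5 of these 8 values. Ier2 was at 21.7, 21.7, 21.9 and 20.8 CPM at 15 min, with little spread. At 60 min it was at 13.02, 16.4, 29.6 and 24.6 CPM, with experiments 3 and 4 above 1 and 2 as for Nr4a1. Egr3 in experiment 3 was at 2.25, 3.66, 8.49 and 1.20 CPM at 15, 30, 60 and 150 min, and the other experiments were at or under 2.71 CPM at these times. Against untreated cells, the log2 fold change of Ier2 lay between 0.07 and 0.42 over the 6 times without the block and was not called at any. Over the 6 acceptor times, 0 members passed the F test in either edgeR fit, beside 0.00759% of all genes without and 0.137% with the block. The unadjusted p was under 0.05 for 3 members without the block (Nr4a1, Nr4a2 and Nr4a3), beside 1.86% of all genes. With the block it was under 0.05 for Ier5, Nr4a2 and Nr4a3, beside 6.64%, and was smallest for Ier5 (edgeR F test, 0.00126).

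Against untreated cells, which are the same controls for all 6 times, 0 members were called in acceptors without the block at any time. Between 0 and 4 had an unadjusted p under 0.05, beside 5.47 to 8.22% of all genes. The share of all genes called was 0, 0, 0.114, 0.0683, 0.137 and 0% at 0, 15, 30, 60, 150 and 300 min. With the block, 0, 1, 2, 2, 2 and 0 of 9 members were higher, and 0.995, 2.25, 3.6, 4, 4.78 and 0.623% of all genes were called. Between times, 0 members were called from 0 to 15 min or from 15 to 300 min by edgeR in either fit or by DESeq2, beside 0% of all genes in all 4 tests. Unadjusted, 0 members had a p under 0.05 without the block in either comparison, and 2 and 1 with it. The shares of all genes were 1.51 and 2.17% without and 3.33 and 5.88% with the block.

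**Figure D3:**
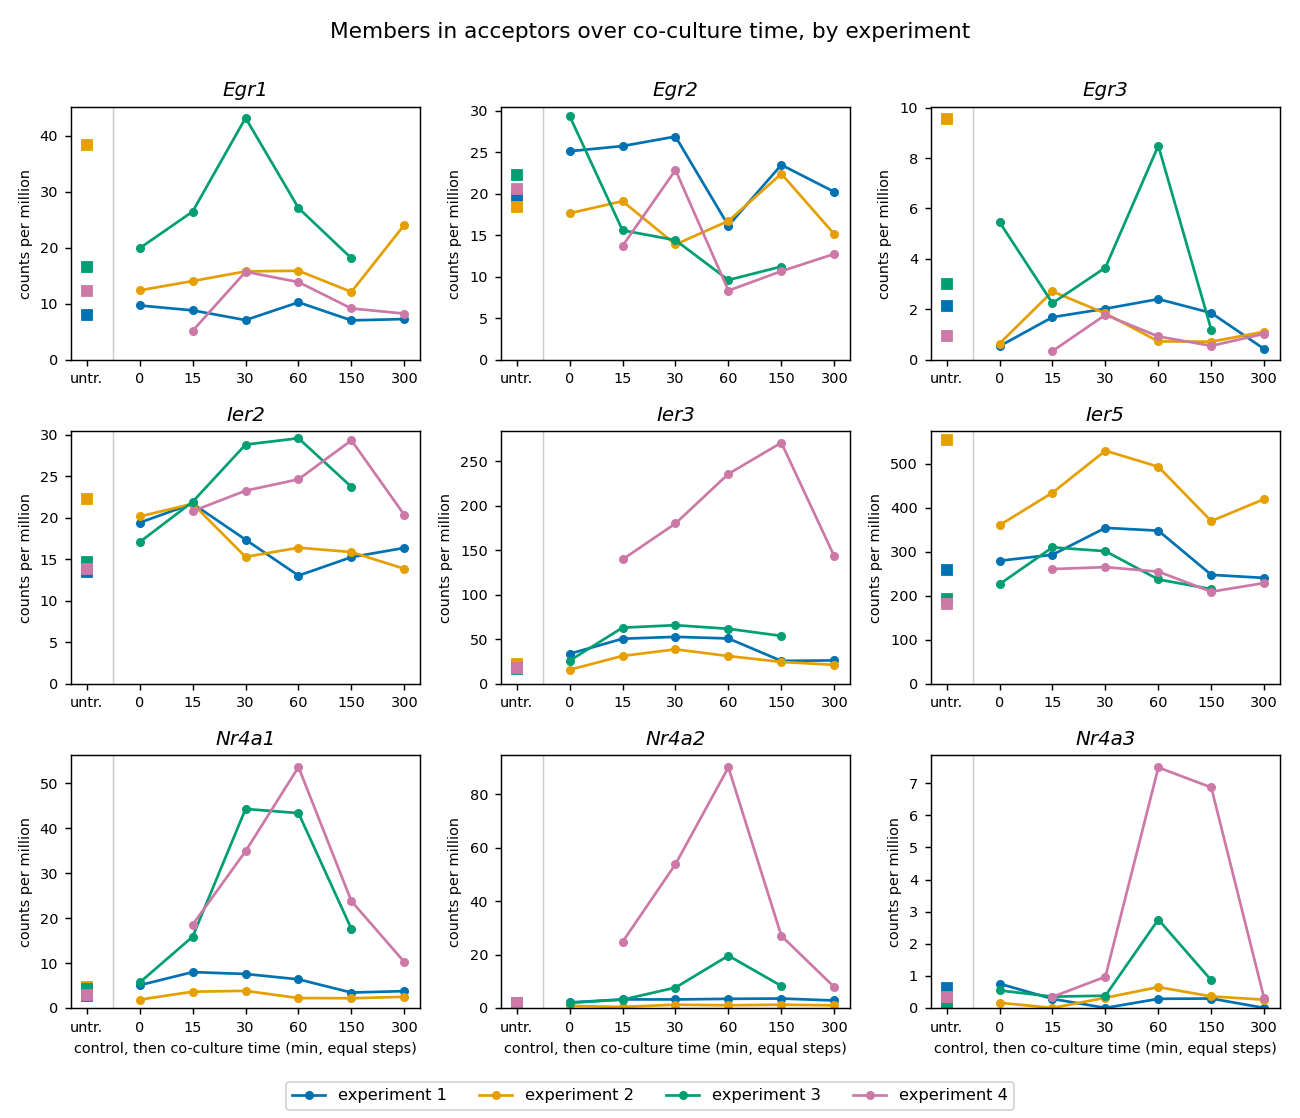
Level in CPM of the 9 members in untreated cells (squares, untr.) and in acceptors at each co-culture time (circles), with 1 colour per experiment, equal steps between times and a linear axis from 0. Nr4a1, Nr4a2 and Nr4a3 were high at 60 min in experiments 3 and 4, and Ier3 was above the untreated range from 15 to 150 min in all 4 experiments.

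Donors were above acceptors of the same time in Ier2 and Ier3. At 30 min Ier2 was at 74.01, 78.05, 41.6 and 22.5 CPM in donors and at 17.3, 15.3, 28.8 and 23.2 CPM in acceptors. Donors were higher in 3 of 4 experiments, and in experiment 4 they were slightly lower. The log2 fold change was 1.35 ± 0.34 (SE, n = 4 per group, edgeR adjusted p = 0.0363) and 1.32 ± 0.32 with the block (adjusted p = 0.00569). The unblocked call was lost without replicate 1, 2 or 3 (adjusted p = 0.332, 0.336 and 0.117) and the blocked one without experiment 1 or 2 (adjusted p = 0.113 and 0.106). At 15 min the difference in Ier2 was called with the block only (1.11 ± 0.32, edgeR adjusted p = 0.0227), and not without experiment 1, 2 or 3.

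Ier3 was higher in donors by 1.70 ± 0.41 at 0 min, 1.49 ± 0.35 at 15 min and 1.03 ± 0.34 at 30 min in the blocked fit (log2, edgeR adjusted p = 0.00971, 0.00417 and 0.0435), in every experiment present. The call at 0 min was lost without experiment 2 or 3, that at 15 min without experiment 2 and that at 30 min without experiment 1, 2 or 3. Without the block none of the 3 passed (adjusted p = 0.748, 0.522 and 0.669). At 60, 150 and 300 min it differed by 0.52 ± 0.37, 0.40 ± 0.34 and 0.63 ± 0.38 and was not called. Donors carried aSyn and acceptors the dye, so the 2 labels and the aSyn cannot be told apart in these comparisons.

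Egr1 at 15 min differed by 1.92 ± 0.69 in the blocked fit (edgeR adjusted p = 0.0673), with donors higher in 2 of 4 experiments. These were experiments 1 and 2, and in experiments 3 and 4 acceptors were higher. Nr4a2 went from 2.33 ± 0.76 at 0 min to -1.35 ± 0.61 at 60 min (adjusted p = 0.0687 and 0.175), higher in donors in 3 of 3 experiments at 0 min and lower in 3 of 3 at 60 min. Ier5 differed by no more than 0.28 in size at any time in the blocked fit. Without experiment 4, the blocked fit called Egr1, Egr2, Ier2, Ier3, Nr4a1 and Nr4a2 at 15 min and Egr1, Egr2, Ier2, Ier3 and Nr4a1 at 30 min. The share of all genes called in that fit was not computed, so these calls are not shown to be particular to the members.

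Without the block, 0, 0, 1, 0, 0 and 0 of 9 members were called at 0, 15, 30, 60, 150 and 300 min, beside 0.251, 0.888, 0.805, 0.418, 0.167 and 0.0304% of all genes. With the block, 1, 2, 2, 0, 0 and 0 of 9 were called, beside 4.28, 9.57, 10.8, 6.7, 5.19 and 1.38%. The median log2 fold change of the members in the blocked fit was 1.14, 1.49, 1.03, 0.11, -0.20 and -0.28 at these times, and that of all genes lay between -0.04 and -0.01. Without the block 1, 3, 4, 0, 0 and 0 members had an unadjusted p under 0.05. Of all genes, 7.48, 11.5, 11.4, 9.85, 8.42 and 6.11% did. DESeq2 called Ier2 at 15 and at 30 min.

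The difference between the populations in the change from 15 to 300 min was tested directly. It was called for 0 members by edgeR in either fit and for 0 by DESeq2, beside 0% of all genes without and 0.0152% with the block. Ier2 had the smallest unadjusted p, 0.00968, with a difference of -1.33 ± 0.49 (log2, donors minus acceptors) and an adjusted p of 1. The F test of the difference over all 6 times also called 0 members in either fit, beside 0% and 0.0456% of all genes. Its unadjusted p was under 0.05 for 1 member without the block (Ier2) and for 2 with it (Ier2 and Nr4a2). Of all genes, 0.858% and 3.78% were under that threshold. A fall of Ier2 particular to donors is therefore not shown, although all 9 members had a negative difference in both fits.

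**Figure D4:**
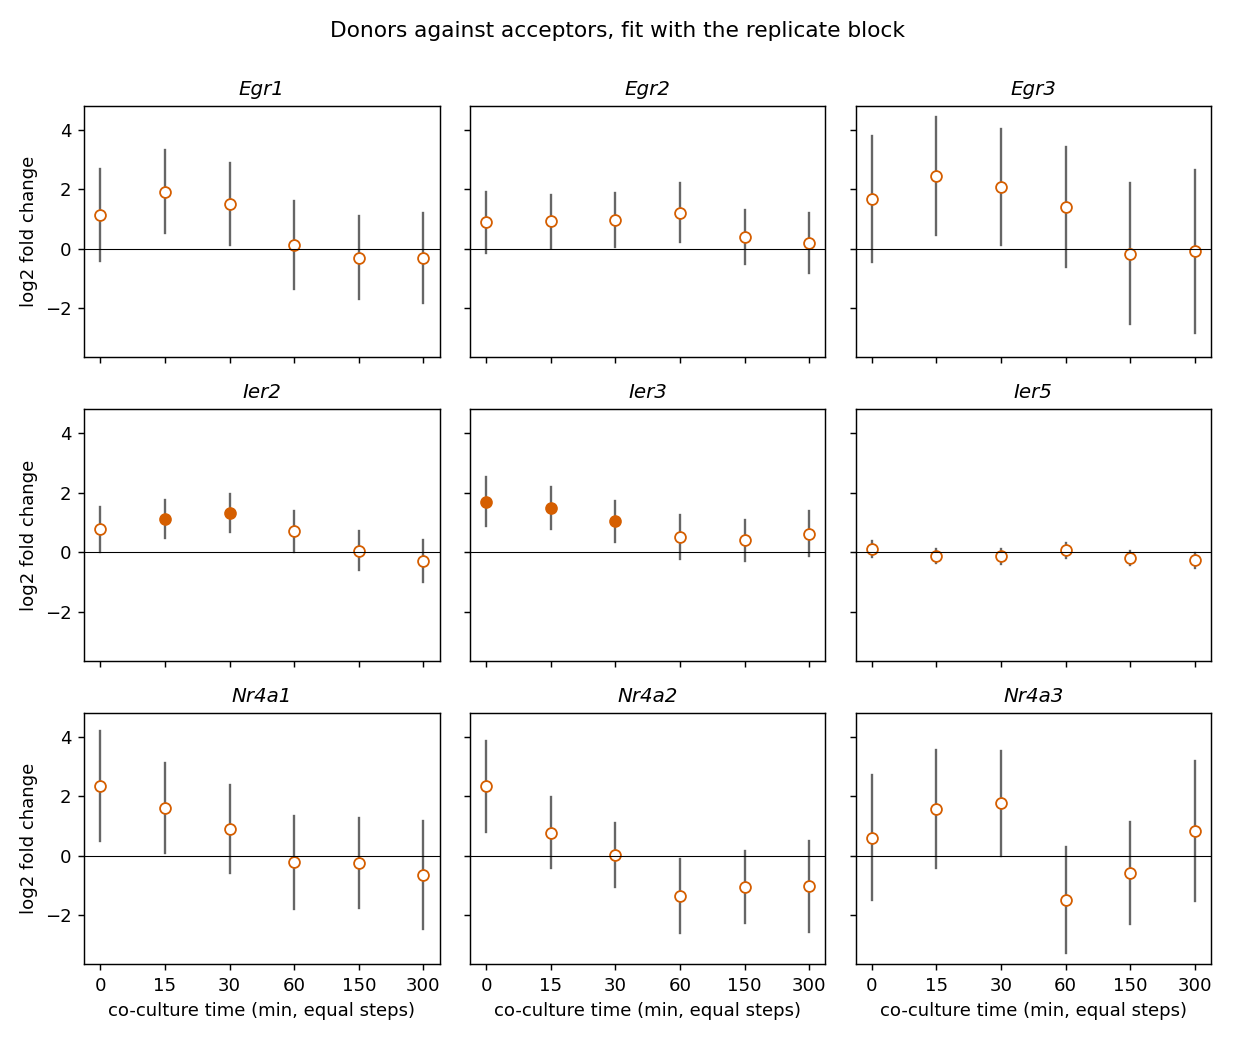
Log2 fold change of donors against acceptors at each co-culture time (equal steps) for the 9 members in the fit with the experiment as a block. Lines are 95% intervals, and filled circles mark an adjusted p under 0.05, which Ier3 had at 0, 15 and 30 min and Ier2 at 15 and 30 min.

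Other genes of the same pathway were followed in lists. Of 32 other immediate early genes, 31 were tested. After aSyn alone, 7 of them rose and 0 fell without the block, beside 2.5% of all tested genes called. With the block 10 rose and 4 fell, beside 19.2%. The median log2 fold change was 0.49 in the unblocked fit. Among the 7, those that rose most were Klf4 (2.85 ± 0.44) and Klf2 (2.61 ± 0.41), zinc finger factors of the Kruppel family, Fosb (2.55 ± 0.61), a subunit of AP-1, and the kinase Plk3 (1.55 ± 0.42). Fosl1, another AP-1 subunit, had the largest fitted change in the blocked fit (edgeR adjusted p = 0.00103) and was not called without it (adjusted p = 0.0610). Its counts were 0 in many libraries, so no fold is given. From 15 to 300 min in donors 3 of 31 fell and 0 rose, with a median of -0.996: Fosb (-3.40 ± 0.63), Klf2 (-3.14 ± 0.42) and the MAP kinase phosphatase Dusp1 (-1.69 ± 0.34). With the block 11 of 31 fell. Of all tested genes, 0.0759% were called without and 0.744% with the block. Donors were above acceptors in 2, 3 and 2 of 31 at 0, 15 and 30 min without the block, beside 0.251, 0.888 and 0.805% of all genes called. With the block 11, 9 and 7 were higher and 0, 1 and 0 lower, beside 4.28, 9.57 and 10.8%. Klf2 was higher at 15 and 30 min in both fits (2.59 ± 0.41 and 2.30 ± 0.41 without the block).

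Of 22 genes of the ERK, serum response factor and CREB pathway, 0 were called after aSyn without the block, and 3 rose and 1 fell with it, a share near the 19.2% of all genes called in that fit. Those that rose with the block were Elk3 (0.55 ± 0.16), a cofactor of serum response factor, the ERK kinase Map2k2 (0.42 ± 0.10) and the coactivator Mrtfb (0.39 ± 0.11), and the one that fell was Mapk3 (-0.40 ± 0.15), which is ERK1. Elk3 was also higher in donors than in acceptors at 15 min (0.74 ± 0.19), and Elk1, another such cofactor, lower at 30 min (-0.66 ± 0.14), both without the block. Each was the 1 gene called of the 22, beside 0.888 and 0.805% of all genes. Of 5 partners of the Egr and Nr4a proteins 4 were tested. After aSyn 0 of the 4 were called without the block, beside 2.5% of all genes. With the block 1 of the 4 rose, beside 19.2% called, so the count is near the share of all genes. That gene was Nab1, a corepressor of Egr proteins (0.39 ± 0.13). Among 10 heat shock genes, 2 were called after aSyn in each fit, beside 2.5% of all genes without and 19.2% with the block. The blocked count is near the share of all genes. The 2 were Hspa1b (3.17 ± 0.58) and Hspa1a (2.34 ± 0.49), which rose. The median log2 fold change of the 10 was 0.20 without and 0.19 with the block. The Hsf1 regulator Ier5 was not called.

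The 9 members differed in how much of their variance lay between groups. In log2 CPM, the group took 58.9% of the variance of Ier2 and the experiment 5.79%. Ier5 was the reverse, with 19.4% for the group and 70.7% for the experiment. Egr1 (23.5% and 35.6%) lay near the medians of all tested genes, 25.0% for the group and 33.9% for the experiment. Egr2 (24.7% and 48.0%) was near the first median and above the second. A group share near or below the median of all genes is not by itself a sign of a group effect. Ier3 had 43.3% and 48.4%, and Nr4a1 41.1% and 16.1%.

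**Figure D5:**
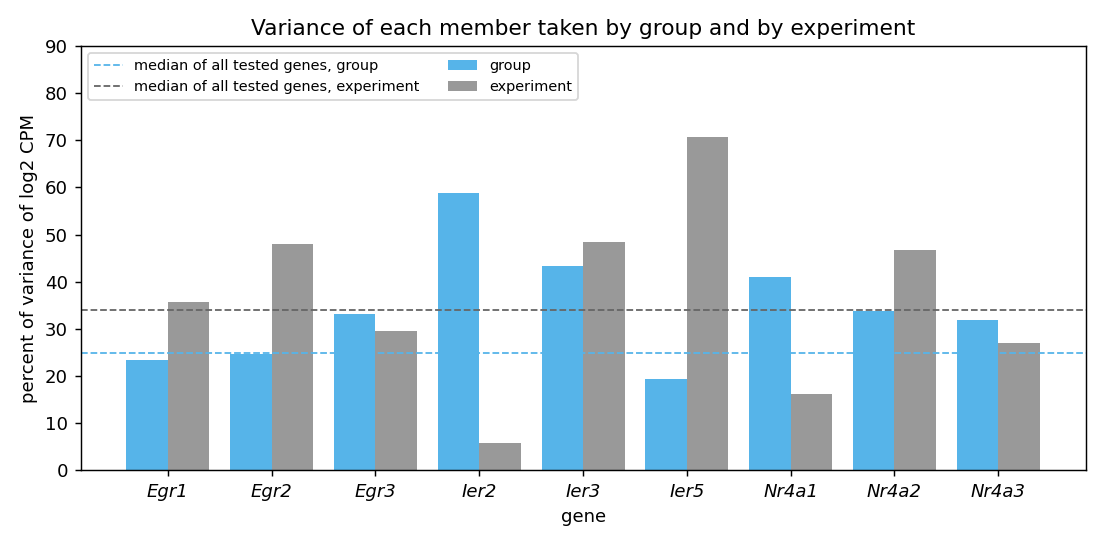
Percent of the variance of log2 CPM over 52 values taken by group and by experiment, each fitted alone, for the 9 members. Dashed lines give the medians of all tested genes, and Ier2 stands out with 58.9% for the group and 5.79% for the experiment.

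Across the 14 group effects, which share controls and libraries, Nr4a1 and Nr4a2 had the highest Pearson correlation among the members, 0.90, followed by Ier2 and Nr4a1 with 0.87 and Egr1 and Egr3 with 0.86. Not all pairs within a family were alike. Ier2 and Ier3 correlated at 0.82, but Ier5 at 0.46 with Ier2 and 0.25 with Ier3. Nr4a3 correlated at 0.47 with Nr4a1 and 0.63 with Nr4a2, and Egr2 at 0.72 with Egr1 and 0.80 with Egr3. Each member weighs alike in its family mean, which does not stand for every member. The family means correlated at 0.80 for Egr with Ier, 0.80 for Ier with Nr4a and 0.59 for Egr with Nr4a. Outside the members, the genes with the pattern most like the Egr mean over the 14 groups were Rhob (0.93), Per1 (0.92) and Rbbp6 (0.91). For the Ier mean they were Junb (0.95), Msl2 (0.93) and Gm10654 (0.93), and for the Nr4a mean Cebpb (0.96), Lhfpl2 (0.93) and Ctnnb1 (0.92). These are descriptions over 14 points from the same libraries.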

How the data were processed

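The values are whole-number read counts for each gene symbol, deposited for 54 libraries of 50 bp single reads; the steps before them used STAR, Partek, DESeq2 and mm10, per the submitters' processing notes. Versions and the use of strand in counting are not given in the sources used here, and no annotated gene (GENCODE M21) overlaps a member. The authors also deposited a normalized signal, which equalled the count divided by a size factor for 100% of values (tolerance 0.05) and was used for that check only. All tests started from the counts.

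Same-numbered untreated libraries were summed because they differed less (chi-square per degree of freedom 10.3 and 12.1) than other untreated pairs (24.2 to 288). edgeR 4.0.16 (TMM, filterByExpr with a minimum count of 10, quasi-likelihood F test) was fitted to all 14 groups, with 24 contrasts and 3 F tests over time. SEs come from the fold change and its F statistic. Same-numbered libraries deviated together: every pair's correlation across genes was at least 0.199 over 82 pairs, and the pairing comes from the replicate number in the titles. CPM values use TMM-scaled library sizes, and log2 CPM a prior count of 2. Alternatives were DESeq2 1.42.0, RLE size factors, no filter, only the groups compared, 54 separate libraries, Rn45s left out and each replicate left out. On simulated counts of 12852 genes for aSyn against untreated, the unblocked fit recovered 58% of genes changed by a log2 of 1 and 93% of those changed by 2, and the blocked fit 84% and 98%. The changed genes were well counted, and the simulation used the spread of the blocked fit with no other group effect. These shares do not hold for members with few counts, such as Nr4a3, or with a larger spread. A member that was not called is therefore not shown to be unchanged.

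The members, gene lists and tests were chosen with earlier results of these data known. The genes named beside the members are those called in the lists, at most 4 by fold change for each list and comparison, and the 3 most alike for each family.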

Additional observations from a re-analysis of the deposited data

Results flagged for a closer look

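Of 90 sets of 4 values (a member in a group), 11 had 1 value standing apart from the other 3 by Dixon's test at 95%. The test's rate of about 1 in 20 by chance holds for independent sets of normally distributed values. Here CPM were used on a linear scale, the sets share the same experiments, and all 11 values stood apart on the high side. The 11 are therefore not measured against chance. The values in experiment 4 were 8 of the 11. For Ier3 they were 421 CPM in aSyn_Donor (the other 3 at 63.9 to 87.0), 306 CPM in donors at 150 min, 230.7 CPM in donors at 300 min, 235.8 CPM in acceptors at 60 min and 271 CPM in acceptors at 150 min. For Nr4a2 they were 24.7 CPM in acceptors at 15 min and 53.9 CPM at 30 min, and for Nr4a3 6.87 CPM in acceptors at 150 min. Experiment 4 also had the lowest summed microglia markers and the highest share of Rn45s, and their part in these values was not tested.

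In experiment 3, Egr3 was at 3.66 CPM in acceptors at 30 min and Nr4a3 at 2.15 CPM in donors at 15 min. In experiment 2, Ier2 was at 22.2 CPM in untreated cells, with the other 3 at 13.4 to 14.7.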

How the results depend on the processing

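The 16 member fold changes called with or without the replicate block kept their sign in every alternative. Of all 216 member fold changes, 15 changed sign with the replicate block, 15 to 25 when a replicate was left out, and none of these was called. RLE size factors and leaving out Rn45s kept every count of members called within 1.5 times, and all 126 group means in CPM moved by less than 1 SD on total counts. With the replicate block, the count of members called became 2 for aSyn against untreated, 1, 2, 2 and 2 for acceptors against untreated at 15, 30, 60 and 150 min, 1, 2 and 2 for donors against acceptors at 0, 15 and 30 min, 2 for donors from 15 to 300 min and 2 for the donor F test, and it changed no other count. With the replicate block and without experiment 4 these were 4, then 1, 1 and 2 (acceptors at 15, 30 and 60 min), then 4, 6, 5 and 1 (0, 15, 30 and 60 min), then 4 and 6. With the replicate block and without experiment 1, 2 or 3, which was chosen after seeing the data, the counts lay between 0 and 3. For all fits that leave out an experiment, the share of all genes called was not computed. With no filter, and with only the groups compared, aSyn against untreated gave 0. In the second setting Ier2 at 30 min, from 15 to 300 min and over the donor times also gave 0. With 54 separate libraries acceptors at 60 min gave 1. DESeq2 gave 2 there, 1 for donors against acceptors at 15 min and 2 for donors from 15 to 300 min. Leaving out one replicate gave 0 to 1 for aSyn against untreated, 0 to 1 for donors against acceptors at 0 and 30 min, 0 to 2 at 15 min, 0 to 2 for donors from 15 to 300 min and 0 to 1 for the donor F test. Apart from the smaller number of samples or of groups in some alternatives, the cause of these changes was not tested. Nr4a3 is limited by depth, with 3 or fewer counts in 13 of 52 values.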
